A study of Mus musculus with 16 samples.

Results

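Of the 49315 genes counted in neutrophils of this sepsis study, 8 were followed here across all groups. They were 4 ligands of the tumor necrosis factor (TNF) superfamily (Tnf, Tnfsf14, Tnfsf13b and Tnfsf10), 3 receptors (Tnfrsf1a, Tnfrsf1b and Fas) and Tnfaip2. Tnfaip2 is neither a ligand nor a receptor. It is a protein whose gene is switched on by TNF and other inflammatory signals. The 8 genes were chosen by name and not by a threshold on their values. Blood and lung neutrophils were obtained from wild-type (WT) and αD KO mice, which lack the αD (CD11d) chain of the integrin αDβ2. The mice were male and 8 to 12 weeks old. They were either untreated (0h) or had undergone cecal ligation and puncture (CLP) 12 hours earlier, an operation that lets gut bacteria into the abdomen. Cells positive for Ly6G, CD11b and CD45.2 were sorted as neutrophils, so no other cell type is available for comparison. This gave 8 groups (WT or αD KO, blood or lung, 0h or 12h) with 2 samples each. Sample 1 of each group has 2 count files (libraries 1a and 1b) and sample 2 has 1 (library 2), so each group has 3 libraries and the series has 24. The study's figure legend speaks of triplicates and does not say what a replicate was. No label says whether libraries come from separate animals, so the p-values below measure the spread between these libraries, which may be technical in part.

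The TNF superfamily is a set of trimeric ligands that act on matching receptors at the cell surface. Some receptors, such as Tnfrsf1a and Fas, carry a death domain in their tail and can start either NF-κB signalling or cell death. Others, such as Tnfrsf1b, lack it and signal through TRAF adaptors. Neutrophils are both a source of TNF and a target of it: TNF primes their oxidative burst, and signals through TNF receptors and Fas influence how long they live.

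Each library held between 5753476 and 29984954 counts (median 18741144). The 8 libraries 1b had counts in 29162 to 38844 genes and the other 16 in 17132 to 32666. Itgad, the gene of αD, was read at 0.0522 to 4.08 normalized CPM (counts relative to the library total, after scaling between libraries) in the 12 WT libraries and at 12.6 to 96.1 in the 12 labelled αD KO. The direction goes against a loss of the transcript, and counts over the whole gene do not show which part was deleted, so this checks only that the libraries of the 2 genotypes separate. Groups are therefore called αD KO by their labels. In the lung, 3 libraries stood apart from the time on their label. Positions were read on a scale made from 1330 other genes, those called in WT lung at 12h against 0h (called as defined below). The mean of WT lung at 0h was set to 0 and at 12h to 1. The 0h libraries of WT had positions of -0.0506, 0.116 and -0.0292 and the 12h libraries positions of 1.19, 0.701 and 1.04. Because the WT lung libraries also chose the genes, their split does not test the scale. The αD KO lung libraries labelled 0h were at 0.156, 0.107 and 1.02. Those labelled 12h were at 0.0962, 0.850 and 0.182. Library 2 at 0h and libraries 1a and 2 at 12h are therefore left out together as an alternative below, which leaves 2 libraries against 1, and the lone library is then assumed to vary like the others. Whether labels were exchanged among these libraries was not tested, and the labels were kept. The sorted cells carried the neutrophil markers: the 8 genes of that list summed to 36631 or more normalized CPM in every library. Markers of other cell types were read too. Over all libraries the monocyte and macrophage list summed to 682 to 42224 normalized CPM, the erythroid list to 23.6 to 8878, the B cell list to 31.5 to 1358, the list of lung epithelial and endothelial genes to 13.7 to 1351 (the highest in αD KO lung library 1a at 0h), the platelet list to 14.2 to 895, the T and NK cell list to 10.3 to 476 and the eosinophil and basophil list to 2.45 to 120.

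The members lie on 7 chromosomes (positions of the files, GRCm38). Tnf (35199381 to 35202007) and Tnfsf14 (57189492 to 57194189) lie on the minus strand of chromosome 17, and Tnfrsf1b (145213463 to 145246870) on that of chromosome 4. The others are on plus strands: Tnfsf10 on chromosome 3 (27317028 to 27342427), Tnfrsf1a on chromosome 6 (125349362 to 125362484), Tnfsf13b on chromosome 8 (10006467 to 10039072), Tnfaip2 on chromosome 12 (111442469 to 111455018) and Fas on chromosome 19 (34290659 to 34327770). No exon of a member overlaps an exon of another gene.

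The promoters of the members on which the results turn are shown first. Each line gives 250 bases before and 50 after an annotated start of the gene (RefSeq, GRCm38.p6), 5′ to 3′ on the strand of the gene. Tnf is a ligand that rose at 12h and Tnfsf14 one that fell, while Tnfrsf1a and Tnfrsf1b are the receptors that share TNF as a ligand. Capitals mark letters of 5 motifs, searched on both strands. They are the core promoter motif TATAAA, the Sp1 motif GGGCGG, the AP-1 motif TGANTCA, the STAT motif TTCNNNGAA and the interferon-stimulated element GAAANNGAAA.
Tnf (chr17:35201958-35202257, minus strand): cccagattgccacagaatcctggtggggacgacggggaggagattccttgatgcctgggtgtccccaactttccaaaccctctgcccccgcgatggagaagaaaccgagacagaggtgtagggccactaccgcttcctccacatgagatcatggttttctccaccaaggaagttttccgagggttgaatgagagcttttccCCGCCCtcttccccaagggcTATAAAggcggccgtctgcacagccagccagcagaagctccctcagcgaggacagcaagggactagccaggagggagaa
Tnfsf14 (chr17:57194132-57194431, minus strand): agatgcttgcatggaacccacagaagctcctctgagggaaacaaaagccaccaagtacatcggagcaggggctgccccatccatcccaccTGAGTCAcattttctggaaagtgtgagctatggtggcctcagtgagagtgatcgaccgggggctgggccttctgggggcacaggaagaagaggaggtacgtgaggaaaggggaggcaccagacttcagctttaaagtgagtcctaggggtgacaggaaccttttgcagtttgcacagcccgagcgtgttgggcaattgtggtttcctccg
Tnfrsf1a (chr6:125349473-125349772, plus strand): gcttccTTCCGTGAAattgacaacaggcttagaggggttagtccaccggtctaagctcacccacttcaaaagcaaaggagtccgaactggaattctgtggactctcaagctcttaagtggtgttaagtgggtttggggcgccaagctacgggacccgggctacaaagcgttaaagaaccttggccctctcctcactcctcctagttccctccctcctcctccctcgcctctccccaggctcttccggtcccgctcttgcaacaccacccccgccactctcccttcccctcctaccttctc
Tnfrsf1b (chr4:145246821-145247120, minus strand): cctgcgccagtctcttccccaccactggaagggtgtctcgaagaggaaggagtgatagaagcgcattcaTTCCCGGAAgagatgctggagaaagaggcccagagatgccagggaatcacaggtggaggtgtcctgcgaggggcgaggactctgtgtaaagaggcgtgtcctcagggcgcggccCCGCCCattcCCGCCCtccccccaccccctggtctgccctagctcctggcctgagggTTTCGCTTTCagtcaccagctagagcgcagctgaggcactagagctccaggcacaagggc
The Tnf window held TATAAA with its first base 29 bases before the start, and an Sp1 motif 49 bases before it. The Tnfsf14 window held an AP-1 motif 160 bases before the start. The windows of the 2 TNF receptors differed: that of Tnfrsf1a held a STAT motif, 244 bases before the start, and that of Tnfrsf1b held a STAT motif 181 bases, 2 Sp1 motifs 67 and 57 bases and an interferon-stimulated element 10 bases before it. Among all 32851 promoter windows of 300 bases, 13.6% held TATAAA, 35.7% an Sp1 motif, 7.81% an AP-1 motif, 8.3% a STAT motif and 3.44% an interferon-stimulated element. A sixth motif, that of NF-κB, was found in 4.51% of all windows and in none of the members' windows, which says only that these letters are not in these 300 bases. These matches describe the sequence and are not shown to be bound in these cells.

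At the baseline (0h), the members covered a wide range of levels. The levels compared here between genes are normalized CPM per kilobase of exon, as mean ± SD of 3 libraries. In WT blood neutrophils, Tnfaip2 was at 318 ± 93.0 and Tnfrsf1a at 184 ± 44.4. They were followed by Tnfsf14 (98.8 ± 25.9), Tnfrsf1b (95.7 ± 23.8) and Fas (66.8 ± 25.4), whose libraries overlapped from one to the next. Tnf was lower, at 11.8 ± 6.20, and overlapped Tnfsf13b at 5.77 ± 2.64. Tnfsf10, which encodes the death ligand TRAIL, was at 0.225 ± 0.314. In WT lung the order at 0h was the same, from Tnfaip2 (319.7 ± 56.3) through Tnfrsf1a (134 ± 17.0) to Tnf (18.3 ± 7.29), Tnfsf13b (4.39 ± 1.47) and Tnfsf10 (0.550 ± 0.595). In untreated WT mice the 3 receptors and Tnfsf14 thus had higher mean levels per length than the ligand Tnf.

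At 12h post CLP that order was different. In WT blood, Tnfrsf1b (137 ± 63.1), Fas (104 ± 62.6), Tnfrsf1a (88.4 ± 6.03), Tnf (74.6 ± 20.8) and Tnfaip2 (66.0 ± 14.2) overlapped each with the next, and Tnfsf14 was below them at 21.2 ± 5.01. In WT lung, Tnf had the highest mean of the 8 genes, 475 ± 376 normalized CPM per kilobase. It overlapped Tnfrsf1b (378 ± 237), which overlapped Fas (243 ± 201), Tnfaip2 (204 ± 103) and Tnfrsf1a (178 ± 50.5) in turn. Tnfsf13b and Tnfsf10 had the lowest means in every group.

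**Figure D1:**
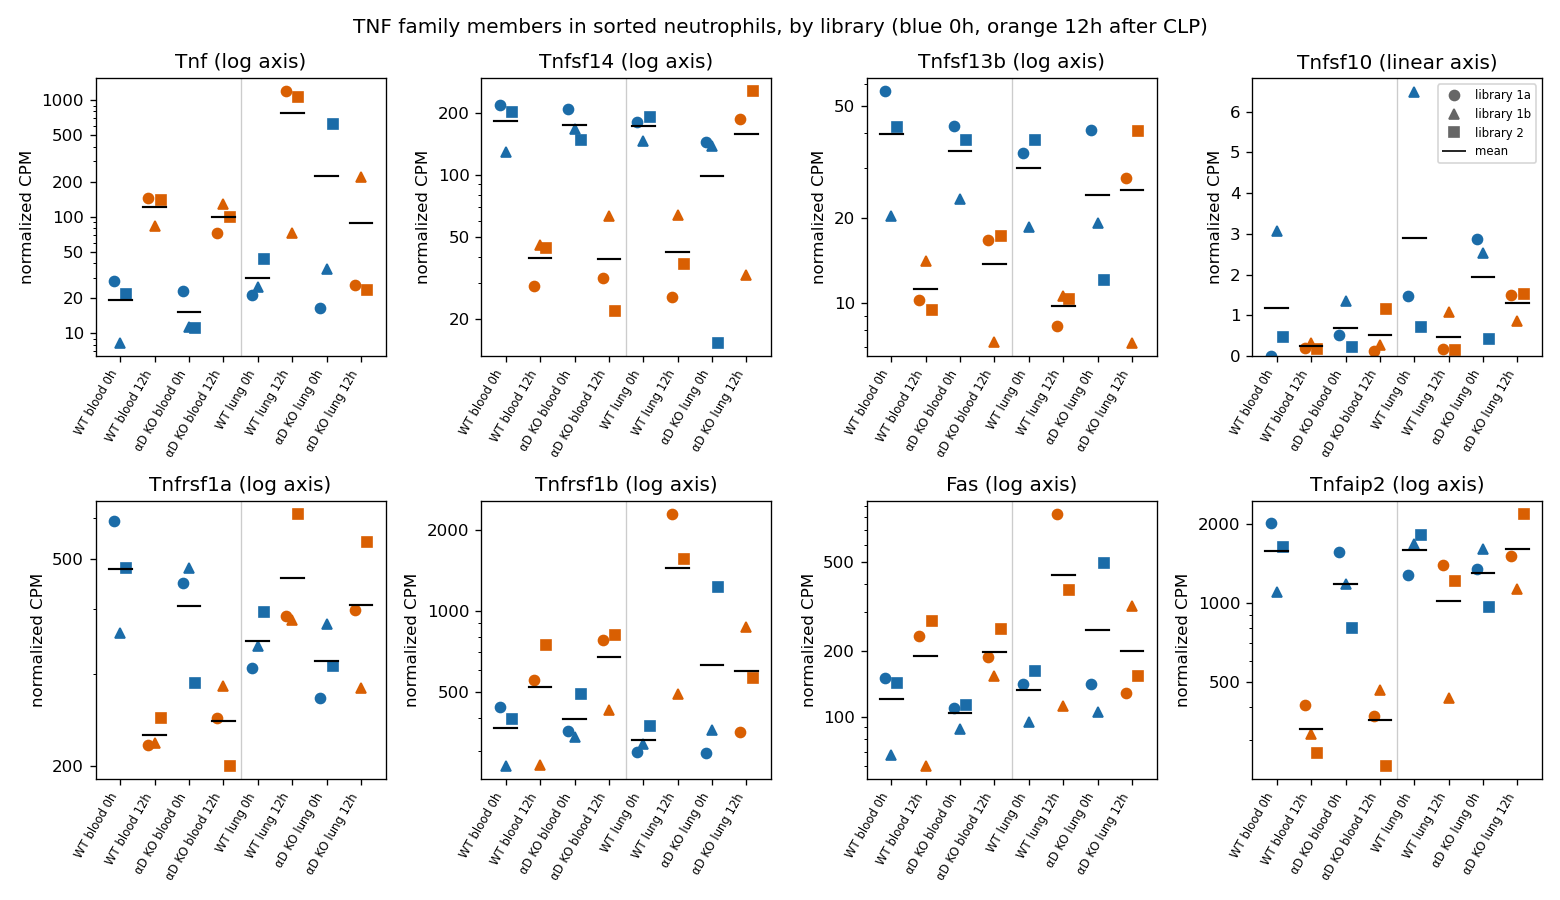
Normalized CPM of the 8 members in each of the 24 libraries, by group (circle library 1a, triangle 1b, square 2; blue 0h, orange 12h; black line the mean of 3 libraries). Axes are logarithmic except for Tnfsf10, whose axis is linear and starts at 0. Tnf is at 8.20 to 43.7 in all blood and WT lung libraries at 0h and at 71.9 to 1198 in those at 12h, and the αD KO lung groups on the right of each panel mix high and low libraries.

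Tnf, the founding ligand of the family, rose in blood neutrophils of both genotypes and in WT lung neutrophils at 12h. In WT blood its 3 libraries were at 28.1, 8.20 and 21.8 normalized CPM at 0h and 144, 82.9 and 139 at 12h (libraries 1a, 1b and 2 in this order, here and below). All 12h libraries were above all 0h libraries. The fitted log2 fold change was 2.58 (SE 0.49), with an adjusted p of 0.0158 (edgeR's quasi-likelihood test with Benjamini-Hochberg adjustment over the genes tested in each comparison, 14625 in this one; every adjusted p below is from this test unless DESeq2 is named). A gene was called when its adjusted p was under 0.05 and its log2 fold change was beyond 1 in either direction. Blood neutrophils of αD KO mice had Tnf at 23.1, 11.4 and 11.04 at 0h and 73.2, 129 and 99.6 at 12h, again without overlap, and rose by 2.68 on the log2 scale (SE 0.39, 6.41-fold, edgeR adjusted p = 0.00767).

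In WT lung, Tnf was at 21.5, 25.0 and 43.7 normalized CPM at 0h and 1198, 71.9 and 1068 at 12h. Every 12h library was above every 0h library, but library 1b at 12h was far below the other two. The log2 fold change was 4.66 (SE 0.95, 25.3-fold, edgeR adjusted p = 0.026). Within libraries of the same number, the log2 ratio of 12h to 0h was 5.80 for 1a, 1.53 for 1b and 4.61 for 2. The rise in lung was not shown to differ from that in blood: the interaction of tissue and time in WT was 1.98 on the log2 scale (SE 1.14, edgeR adjusted p = 0.876).

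Tnfsf14 (LIGHT), a ligand of the lymphotoxin β receptor and of HVEM (Tnfrsf14), fell in the same comparisons. In WT blood it was at 219.5, 129 and 203 normalized CPM at 0h and 28.7, 45.5 and 44.1 at 12h. The log2 fold change was -2.27 (SE 0.36, 4.82-fold lower, edgeR adjusted p = 0.00837). The values in αD KO blood were 209, 167 and 148 at 0h and 31.4, 63.3 and 21.7 at 12h, with a log2 fold change of -2.23 (SE 0.42, edgeR adjusted p = 0.02, and 0.0527, not called, with the 2 files of sample 1 summed). Those in WT lung were 180.3, 146 and 191 at 0h and 25.7, 63.6 and 36.9 at 12h, with a log2 fold change of -2.02 (SE 0.42, edgeR adjusted p = 0.0274). The libraries at 0h and 12h did not overlap in any of these comparisons, and library 1b at 12h was the highest of its group in each of them.

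Tnfsf13b (BAFF), the survival factor of B cells, was lower at 12h in all 3 comparisons and passed the test in WT. In WT blood it was at 56.4, 20.4 and 42.1 normalized CPM at 0h and 10.2, 14.1 and 9.43 at 12h (log2 fold change -1.87, SE 0.42, 3.67-fold lower, edgeR adjusted p = 0.0257). Its values in WT lung were 34.0, 18.7 and 37.7 at 0h and 8.31, 10.6 and 10.3 at 12h (log2 fold change -1.64, SE 0.37, edgeR adjusted p = 0.0324). Those in αD KO blood were 42.3, 23.4 and 37.7 at 0h and 16.7, 7.29 and 17.3 at 12h. The libraries did not overlap there either, but the log2 fold change of -1.37 (SE 0.41) had an edgeR adjusted p of 0.072. The change in αD KO blood was not shown to differ from that in WT blood (interaction 0.65 on the log2 scale, SE 0.73, edgeR adjusted p of 1).

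Tnfsf10 was barely read. It had between 0 and 113 counts per library, and its highest level was 6.49 normalized CPM, in library 1b of WT lung at 0h. It was left out of both tests of 12h against 0h in blood by the filter on low counts. In WT lung it was at 1.47, 6.49 and 0.726 at 0h and 0.183, 1.08 and 0.162 at 12h, which overlap, and the log2 fold change of -2.59 (SE 1.12) did not pass (edgeR adjusted p = 0.184).

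The ratio of Tnf to Tnfsf14 within a library, per length, summarises the opposite course of the 2 ligands. It lay between 0.0721 and 0.259 in the 9 libraries of WT blood, αD KO blood and WT lung at 0h. At 12h, in other mice of the same genotypes and tissues, it lay between 1.28 and 53.0 in the 9 libraries. The ratio was thus below 1 in every one of these libraries at 0h and above 1 in every one at 12h. The lowest value at 12h was that of WT lung library 1b.

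Of the 2 receptors of TNF, Tnfrsf1a (TNFR1, with a death domain) and Tnfrsf1b (TNFR2, without one), neither passed the test at 12h against 0h in any group. Tnfrsf1a was at 591, 361 and 481 normalized CPM in WT blood at 0h and 219, 222 and 247 at 12h. These libraries did not overlap, with a log2 fold change of -1.11 (SE 0.33, edgeR adjusted p = 0.0614). The libraries of αD KO blood were at 449, 481 and 288 at 0h and 248, 284 and 199 at 12h (log2 fold change -0.81, SE 0.32, edgeR adjusted p = 0.145). WT lung libraries were at 308, 339 and 395 at 0h and 388, 381 and 611 at 12h, which overlap (log2 fold change 0.40, SE 0.35, edgeR adjusted p = 0.524). In blood of each genotype every 12h library of Tnfrsf1a was thus below every 0h library, which was not so in lung.

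Tnfrsf1b was at 438, 263 and 395 normalized CPM in WT blood at 0h and 551, 268 and 747 at 12h, which overlap (log2 fold change 0.45, SE 0.44, edgeR adjusted p = 0.536). The αD KO blood libraries were at 358, 339 and 489.6 at 0h and 781, 426 and 813 at 12h, which overlap too (log2 fold change 0.71, SE 0.33, edgeR adjusted p = 0.203). In WT lung it was at 299, 319 and 372 at 0h and 2288, 490.3 and 1556 at 12h. There the libraries did not overlap, and the log2 fold change of 2.11 (SE 0.56, 4.32-fold) had an edgeR adjusted p of 0.0523. Under DESeq2 the adjusted p was 0.00148, and without library 1b of WT lung at 12h the gene was called.

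Because both receptors were read in the same library, their ratio does not depend on how libraries were scaled. The ratio of Tnfrsf1a to Tnfrsf1b, per length, was 1.99, 2.02 and 1.80 in WT blood at 0h and 0.585, 1.22 and 0.487 at 12h. In WT lung it was 1.52, 1.57 and 1.57 at 0h and 0.250, 1.15 and 0.579 at 12h. In both tissues of WT mice every 12h library was below every 0h library, and libraries 1b at 12h were the nearest to 0h. For αD KO blood the ratio was 1.85, 2.09 and 0.867 at 0h and 0.467, 0.985 and 0.361 at 12h, so that library 2 at 0h lay among the 12h libraries. That library also had the highest sums of its group for 5 marker lists of other cells (B cell, T and NK cell, monocyte and macrophage, platelet and erythroid), and their part in this ratio was not tested. These ratios were chosen after the values were seen and carry no test.

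**Figure D2:**
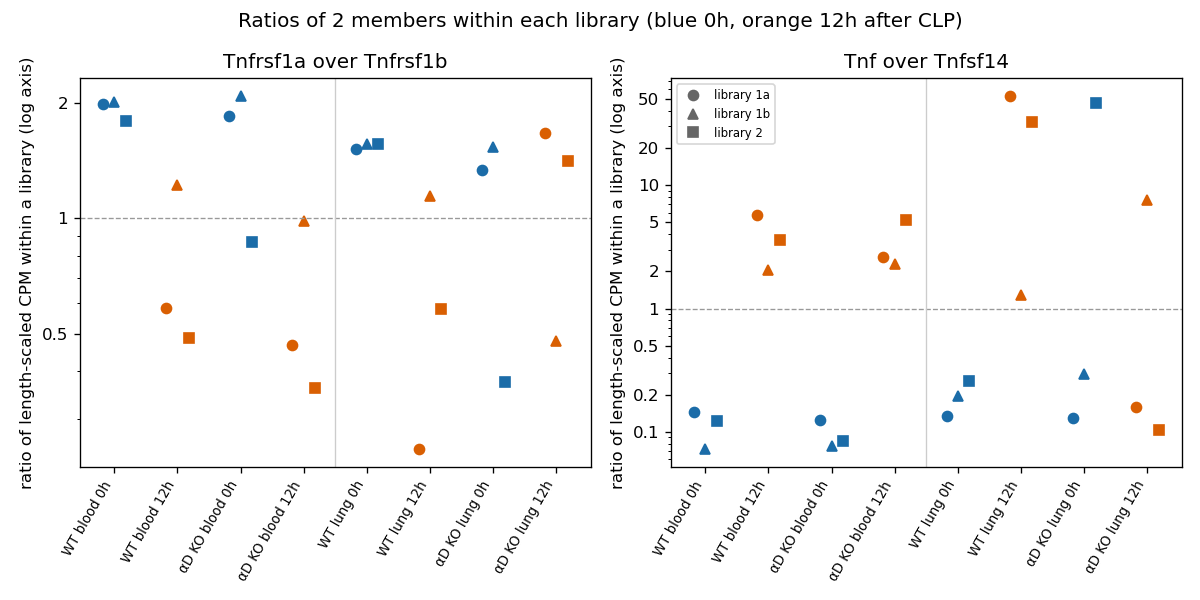
Ratio of 2 members within each library on a logarithmic axis, from normalized CPM per kilobase of exon (circle library 1a, triangle 1b, square 2; blue 0h, orange 12h; dashed line a ratio of 1). In WT the ratio of Tnfrsf1a to Tnfrsf1b is 1.52 to 2.02 at 0h and 0.250 to 1.22 at 12h, and the ratio of Tnf to Tnfsf14 is above 1 in all blood and WT lung libraries at 12h.

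Fas, the receptor of Fas ligand, had its highest level in the lung at 12h but did not pass the test. In WT lung it was at 141, 94.9 and 163 normalized CPM at 0h and 826, 113 and 374 at 12h, with library 1b at 12h inside the range of 0h (log2 fold change 1.69, SE 0.65, edgeR adjusted p = 0.141). In WT blood it was at 150.2, 67.7 and 143 at 0h and 232, 59.96 and 272 at 12h, and the groups overlapped (log2 fold change 0.57, SE 0.57, edgeR adjusted p = 0.544). The libraries of αD KO blood were at 111, 88.2 and 113 at 0h and 186, 154 and 250.2 at 12h. These did not overlap, and the log2 fold change of 0.87 (SE 0.27) had an edgeR adjusted p of 0.0847.

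Tnfaip2 fell in blood of both genotypes. In WT blood it was at 2022, 1099 and 1636 normalized CPM at 0h and 406, 314 and 267 at 12h (log2 fold change -2.33, SE 0.40, 5.02-fold lower, edgeR adjusted p = 0.0117). The αD KO blood libraries were at 1562, 1184 and 799 at 0h and 368, 466 and 237 at 12h (log2 fold change -1.79, SE 0.38, 3.45-fold lower, edgeR adjusted p = 0.0295). With the 2 files of sample 1 summed, which leaves 2 samples a group, the call of Tnfaip2 in αD KO blood was lost too (-1.69, SE 0.42, edgeR adjusted p = 0.0914), while that of Tnf was not (2.79, SE 0.37, edgeR adjusted p = 0.0266). Those of WT lung were at 1278, 1688 and 1815 at 0h and 1398, 433 and 1213 at 12h, which overlap (log2 fold change -0.67, SE 0.49, edgeR adjusted p = 0.43). Tnfaip2 is named for its induction by TNF, and at 12h against 0h in WT and αD KO blood, where Tnf rose, Tnfaip2 fell.

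**Figure D3:**
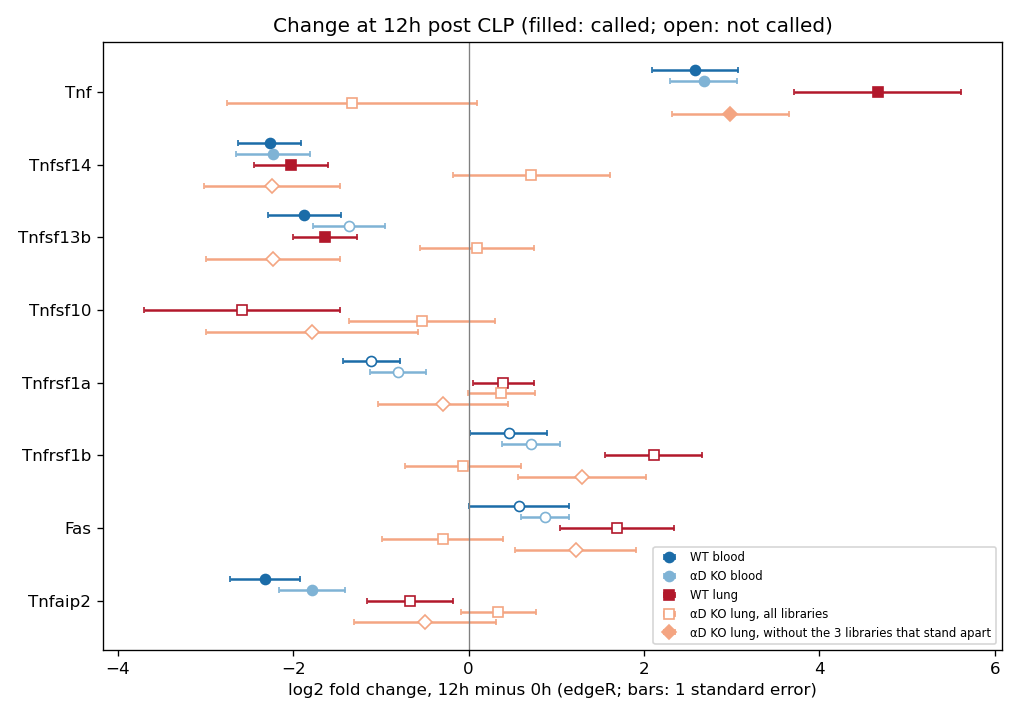
Fitted log2 fold change (12h minus 0h) of each member, with bars of 1 standard error; filled symbols were called (edgeR adjusted p under 0.05 and log2 fold change beyond 1) and open symbols were not. Tnfsf10 was not tested in blood. In blood and WT lung Tnf lies between 2.58 and 4.66 and Tnfsf14 between -2.27 and -2.02, while in αD KO lung with all libraries no member was called.

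In WT blood 4 of the 7 members tested were called (1 higher, 3 lower), where 13.5% of all genes tested were called, 7.75% higher and 5.75% lower. In WT lung 3 of 8 were called (1 higher, 2 lower), where 9.02% of genes were called, 5.24% higher and 3.78% lower. In αD KO blood 3 of 7 were called (1 higher, 2 lower), where 8.75% were called, 3.75% higher and 4.99% lower. Libraries at 12h and 0h did not overlap for 5 members in WT blood, 4 in WT lung and 6 in αD KO blood. The same held for 38% of all genes tested in WT blood, 32.1% in WT lung and 33.3% in αD KO blood. The median size of the fitted log2 change was 1.87 over the members and 0.83 over all genes in WT blood, 1.86 and 0.71 in WT lung, and 1.37 and 0.76 in αD KO blood. Because the members were chosen with earlier results of these data known, these counts and medians describe them and do not test them against all genes. The αD KO and WT comparisons do not share libraries, and neither do those of blood and lung. The calls of WT blood were lost without library 1a or 2 of either time point (0 members called), and so were those of WT lung, while without library 1b of WT lung at 12h 6 members and 25.3% of all genes were called. Over all genes, the share called without library 1a or 2 of either time point was 0.00999% to 0.811% in WT blood and 0% to 0.122% in WT lung. For αD KO blood 1 member was called without library 1a of either time point and 0 without library 2 at 12h, where 0.973% of all genes were called (0.456% without 1a at 0h and 1.54% without 1a at 12h). A library that was left out also changed which genes passed the filter on low counts. The fitted changes of the called members kept their direction: over 13 alternatives, those with a library left out included, Tnf ranged from 2.21 to 2.95 on the log2 scale in WT blood, 4.07 to 5.16 in WT lung and 2.31 to 3.18 in αD KO blood, and Tnfsf14 from -2.63 to -2.05, -2.69 to -1.97 and -2.77 to -1.93. Tnfsf13b ranged from -2.42 to -1.53 in WT blood and -2.07 to -1.47 in WT lung, and Tnfaip2 from -2.55 to -2.07 in WT blood and -1.99 to -1.46 in αD KO blood.

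Marker genes of cell types moved with these changes, and in sorted bulk samples fewer cells of a type and less RNA per cell cannot be told apart. The neutrophil list summed to 36631 to 45844 normalized CPM in WT blood at 0h and to 116152 to 175956 at 12h. In WT blood 5 of its 8 genes rose, S100a8 and S100a9 among them, and 1 fell, Csf3r, the receptor of the neutrophil growth factor G-CSF. In WT lung that list summed to 41595 to 49976 and 65123 to 169255, with library 1b at 12h the highest, and Ly6g rose and Csf3r fell. In αD KO blood it summed to 39357 to 55765 and 97886 to 143089, with 3 genes higher and Csf3r lower.

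The monocyte and macrophage list (15 genes) moved in both directions. In WT blood it summed to 682 to 2420 normalized CPM at 0h and 17528 to 42224 at 12h. Most of the sum at 12h was Chil3, a chitinase-like gene that immature neutrophils also express, at a mean of 25881. In WT blood Ly6c2 and Chil3 rose and Csf1r and Ccr2 fell, and in WT lung Ly6c2, Chil3 and F13a1 rose and Csf1r and Adgre1 fell. In αD KO blood 4 of its genes fell (Csf1r, Adgre1, C1qa and C1qc) and none rose. The sums were 1256 to 1778 and 5969 to 15031 in WT lung and 792 to 4671 and 4979 to 18016 in αD KO blood.

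Markers of the other cell types were called lower at 12h or not called. The B cell list summed to 359.7 to 1200.2 at 0h and 46.8 to 204 at 12h in WT blood, with 1 of 10 genes called lower. The sums were 481 to 758 and 31.5 to 79.2 in WT lung, with 5 called lower, and 371 to 1358 and 39.1 to 118 in αD KO blood, with 4 called lower. Of the 11 T and NK cell genes, 3 were called lower in αD KO blood (Cd4, Lck and Ncr1) and 0 in the other 2 comparisons. Library 2 of αD KO blood at 0h was the highest of its group for both lists, with a B cell sum of 1358 against 539 and 371 and a T and NK cell sum of 476 against 33.1 and 19.8. It was also the highest for the monocyte and macrophage list (4671 against 2687 and 792), the platelet list (895 against 762 and 57.1) and the erythroid list (8878 against 1742 and 7380), and without it 2 members and 3.51% of all genes were called in αD KO blood, in place of 3 and 8.75%. The eosinophil and basophil list (10 genes) summed to 61.2 to 67.7 and 5.69 to 8.99 in WT blood, with Prg2 at 0 in every library at 12h, to 70.9 to 120 and 3.73 to 28.6 in WT lung and to 51.2 to 64.1 and 2.45 to 4.95 in αD KO blood. Siglecf and Ccr3 of this list fell in each of the 3. Of the 9 platelet genes, 5 were called lower in WT blood, 0 in WT lung and 3 in αD KO blood. The erythroid list (7 of 8 genes matched) summed to 250.4 to 3670 at 0h and 341 to 2141 at 12h in WT blood, and the list of lung epithelial and endothelial genes (18 genes) had 1, Sftpc, lower in WT blood. The part of these genes in the members' changes was not tested.

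In αD KO lung, no member was called at 12h against 0h, and no gene of the 17939 tested was (0% called, and 0 members with an unadjusted p under 0.05, edgeR; DESeq2 called 0 members). The libraries did not overlap for 0 members and for 3.53% of all genes. Tnf was at 16.4, 35.7 and 624 normalized CPM at 0h and 26.1, 218 and 23.4 at 12h. The high values were those of library 2 at 0h and library 1b at 12h, the libraries at 1.02 and 0.850 on the scale of the other genes. In these 2 libraries the monocyte and macrophage list summed to 14014 and 7369 normalized CPM, against 1217 to 2387 in the other 4, and the neutrophil list to 79285 and 107810, against 48156 to 64512. Most of the monocyte and macrophage sum in these 2 libraries was Chil3 (10122 and 4773) and Nr4a1 (3356 and 1785). The lists of B cells (50.1 and 61.7, against 326 to 507), of eosinophils and basophils (3.64 and 16.6, against 60.2 to 85.5), of T and NK cells (16.3 and 12.1, against 18.9 to 24.2) and of lung epithelial and endothelial genes (122 and 75.5, against 206 to 1351) were lower in these 2, and the platelet and erythroid lists did not split in this way. Their part in the members' values was not tested. Tnfsf14 had its low values in the same libraries: it was at 145, 138 and 15.2 at 0h and 187, 32.7 and 256 at 12h. Tnfsf13b was at 40.9, 19.2 and 12.1 at 0h and 27.7, 7.18 and 40.6 at 12h.

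Tnfrsf1b and Fas were highest in library 2 among those of 0h and in library 1b among those of 12h. Tnfrsf1b was at 296, 361 and 1226 normalized CPM at 0h and 353, 870.1 and 563 at 12h, and Fas at 141, 106 and 497 and at 128, 317 and 154. Tnfrsf1a was at 269.8, 375 and 311 at 0h and 400.0, 283 and 539 at 12h, and did not split in this way: library 2 at 0h lay between the other two, and library 1b at 12h was the lowest. The ratio of Tnfrsf1a to Tnfrsf1b was 1.34, 1.53 and 0.374 at 0h and 1.67, 0.479 and 1.41 at 12h, and that of Tnf to Tnfsf14 was 0.128, 0.294 and 46.7 at 0h and 0.158, 7.57 and 0.104 at 12h. By both ratios, library 2 at 0h and library 1b at 12h were apart from the other 4.

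Without the 3 libraries that stood apart, libraries 1a and 1b at 0h and library 1b at 12h remain, all of them files of sample 1 of their group. The 3 were left out because their other genes did not follow the response of WT lung, so the remaining libraries were chosen by that response and the values are given with no test. Tnf was at 16.4 and 35.7 normalized CPM at 0h and at 218 at 12h, with a fitted log2 fold change of 2.98. Those of Tnfsf14 and Tnfsf13b were -2.24 and -2.23, and those of Tnfrsf1b, Fas and Tnfaip2 were 1.29, 1.22 and -0.50. With all libraries the fitted values were -1.33 for Tnf (SE 1.42), 0.72 for Tnfsf14 (SE 0.89), 0.10 for Tnfsf13b (SE 0.65), -0.07 for Tnfrsf1b (SE 0.66), -0.30 for Fas (SE 0.68) and 0.34 for Tnfaip2 (SE 0.43), each on the other side of 0.

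**Figure D4:**
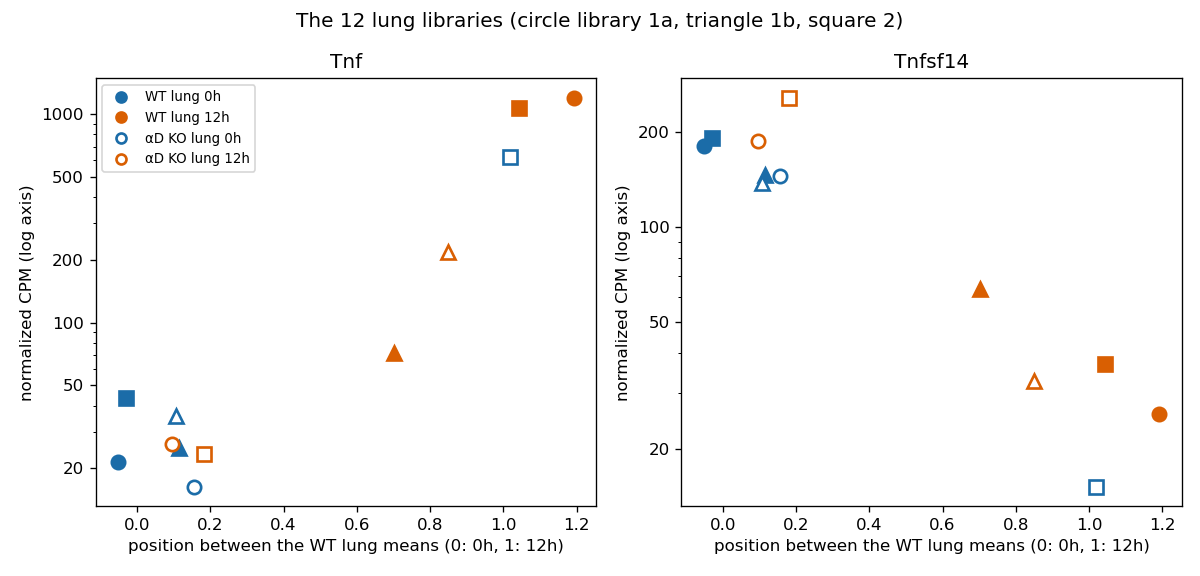
Normalized CPM of Tnf and Tnfsf14 (logarithmic axes) in the 12 lung libraries against their position on the scale made from 1330 other genes. These genes were those called in WT lung at 12h against 0h, so the WT split follows from their choice. On the scale 0 is the mean of WT lung at 0h and 1 that at 12h (filled WT, open αD KO, blue 0h, orange 12h). The αD KO lung library 2 labelled 0h (Tnf at 624) lies among the WT libraries of 12h, and the αD KO lung libraries 1a and 2 labelled 12h (Tnf at 26.1 and 23.4) are at 0.0962 and 0.182, near those of 0h (-0.0506 to 0.116).

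Between labelled genotypes, edgeR and DESeq2 called 0 members in any of the 4 comparisons. By edgeR 0.0115% of all genes were called in blood at 0h, and 0% in blood at 12h and in lung at 0h and 12h. By DESeq2 the shares were 0.0118% and 0.0363% in blood at 0h and 12h, and 0.0163% and 0.361% in lung. Unadjusted p under 0.05 was found for 0 members in blood at 0h (0.709% of all genes), in blood at 12h (4.01%) and in lung at 0h (1.86%, edgeR). At 12h in blood Tnf was at 101 ± 27.9 normalized CPM in αD KO and 122 ± 34.2 in WT (log2 difference αD KO minus WT -0.20, SE 0.32), Tnfsf14 at 38.8 ± 21.8 and 39.4 ± 9.31 (0.04, SE 0.43), and Tnfrsf1b at 673 ± 215 and 522 ± 241 (0.43, SE 0.40). All members overlapped between genotypes in that comparison, where the libraries of 9.76% of all genes did not. The change at 12h in blood was not shown to differ between genotypes for any member (interaction of genotype and time, 0 of 8 members called, 0% of all genes, 0 members with an unadjusted p under 0.05, edgeR; DESeq2 called 0).

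In lung at 12h, the means of the genotypes lay further apart. Tnf was at 89.1 ± 111 normalized CPM in αD KO and 779 ± 616 in WT (log2 difference -3.10, SE 1.20, edgeR adjusted p = 0.598) and Tnfsf14 at 159 ± 114 and 42.0 ± 19.5 (2.06, SE 0.75, adjusted p = 0.598). Together with Tnfsf13b (1.51, SE 0.61), 3 members had an unadjusted p under 0.05, against 8.29% of all genes. All 8 members overlapped between genotypes, while 10.9% of all genes did not. Without the 2 libraries of αD KO lung at 12h that stood apart, the log2 difference was -1.90 for Tnf, -0.37 for Tnfsf14 and -0.46 for Tnfsf13b. The library kept, 1b, was chosen for its likeness to WT lung at 12h, so these values, and every value below without the libraries that stood apart, are a description with no test. With libraries 1a and 2 alone, 6 members and 30.1% of all genes were called, and these include both libraries that stood apart. At 0h in lung, Tnf was at 225 ± 346 in αD KO and 30.1 ± 12.0 in WT (log2 difference 2.85, SE 1.28, edgeR adjusted p = 0.983), and without library 2 of αD KO lung at 0h the difference was -0.28. Tnfsf14 was lower in every αD KO lung library at 0h (145, 138 and 15.2) than in those of WT (180.3, 146 and 191), as 7.58% of all genes did not overlap, with a log2 difference of -0.79 (SE 0.73, edgeR adjusted p = 0.983) and of -0.33 without library 2. The interaction of genotype and time in lung called 0 members (0% of all genes). It was -6.09 for Tnf (SE 1.95, edgeR adjusted p = 0.41) with all libraries and -1.66 without the 3, and 3 members had an unadjusted p under 0.05 with all libraries, as did 10.5% of all genes. DESeq2 called 1 member in that test, Tnf, and 0.71% of all genes.

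Between tissues, 0 members were called by edgeR. At 0h 0% of all genes were called in WT and 0% in αD KO, and at 12h 0.0442% in WT and 0.0548% in αD KO. At 0h DESeq2 called 0 members too (0.0994% of all genes in WT, 0.263% in αD KO). The unadjusted p at 0h (edgeR) was under 0.05 for 0 members and 2.54% of all genes in WT, and for 1 member, Tnf, and 2.91% of all genes in αD KO, whose lung values include library 2. Tnfsf14 did not overlap between lung and blood of αD KO at 0h, as was so for 7.15% of all genes: it was at 99.1 in lung and 175 in blood in the mean (log2 difference -0.87, SE 0.71, edgeR adjusted p of 1, and -0.25 without library 2 of lung). At 12h in WT, lung neutrophils had more Tnf (779 ± 616 against 122 ± 34.2 normalized CPM, log2 difference lung minus blood 2.63, SE 0.83, edgeR adjusted p = 0.182) and more Tnfaip2 (1015 ± 512 against 329 ± 70.6, 1.61, SE 0.44, adjusted p = 0.15) in their means, and neither passed the test. Tnfrsf1a was at 460.1 ± 131 in lung and 229 ± 15.6 in blood (1.02, SE 0.32, adjusted p = 0.179). Lung and blood libraries did not overlap for Tnfrsf1a and Tnfaip2, as for 23.7% of all genes. Unadjusted p was under 0.05 for 4 members and for 18.1% of all genes, and DESeq2 called 3 members (Tnf, Tnfrsf1a and Tnfaip2) and 2.14% of all genes. In the same libraries the list of lung epithelial and endothelial genes summed to 83.9 to 459.7 in lung and 19.4 to 28.0 in blood, and the monocyte and macrophage list to 5969 to 15031 and 17528 to 42224. The groups did not overlap in either sum. Genes of the monocyte and macrophage list went both ways. In their means, Chil3 (6405 in lung and 25881 in blood) and Ly6c2 (469 and 610) were lower in lung. Nr4a1 (3810 and 206) and Csf1r (196 and 136) were higher there. No gene of the marker lists was called, and the part of these lists in the members' values was not tested.

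At 12h in αD KO, Tnfaip2 was at 1611 ± 536 normalized CPM in lung and 357 ± 115 in blood (log2 difference 2.16, SE 0.43, edgeR adjusted p = 0.092), without overlap, as for 27.8% of all genes. Without the 2 libraries that stood apart it was 1.34. In the same comparison 2 of the 18 lung epithelial and endothelial genes, Sftpa1 and Scgb1a1, were called higher in lung, and that list summed to 75.5 to 216 in lung and 13.7 to 27.1 in blood. The 10 eosinophil and basophil genes, of which 2 were tested and 0 called, summed to 16.6 to 85.5 in lung and 2.45 to 4.95 in blood, with Prg2, Mcpt8 and Fcer1a at 0 in blood. The part of these lists in the values of Tnfaip2 and Tnfsf14 was not tested. DESeq2 called 2 members, Tnfaip2 and Tnfsf14, and 3% of all genes, and the latter was at 159 ± 114 in lung and 38.8 ± 21.8 in blood (2.02, SE 0.70, edgeR adjusted p = 0.162), but at -0.56 without those 2 libraries. The interactions of tissue and time called 0 members in WT (0% of all genes) and 0 in αD KO (0%). In WT the largest were those of Tnf, given above, Tnfaip2 (1.57, SE 0.69, edgeR adjusted p = 0.876), Tnfrsf1b (1.53, SE 0.81) and Tnfrsf1a (1.40, SE 0.48), 2 of which had an unadjusted p under 0.05, as did 5.49% of all genes. DESeq2 called Tnfrsf1a and 0.22% of all genes in that test. In αD KO the unadjusted p was under 0.05 for 3 members and 10.6% of all genes, while 1 member, Tnfaip2, and 0.588% of all genes passed with DESeq2 (edgeR 1.93, SE 0.65, adjusted p = 0.403, and 0.99 without the libraries that stood apart). The other 2 were Tnf (-4.50, SE 1.63, edgeR adjusted p = 0.403, and 0.05 without those libraries) and Tnfsf14 (2.84, SE 1.12, edgeR adjusted p = 0.408, and -0.30 without them).

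The rest of the TNF superfamily was followed as lists: 14 other ligands, 25 other receptors, 31 genes of receptor signalling and 7 other TNF-induced proteins. Most other ligands were barely read. Of the 14, 4 were below 1 normalized CPM in every library and 1, Ltb (lymphotoxin β), had a mean of at least 10 over the libraries, with group means of 134 to 319. No other ligand was called at 12h in blood or WT lung, of 2 tested in WT blood, 2 in WT lung and 4 in αD KO blood (the filter left out the rest). Of all genes 13.5%, 9.02% and 8.75% were called in these comparisons.

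Of the other receptors, 1 of 18 tested was called in WT blood and 1 of 19 in WT lung, and it was Tnfrsf13b in each, a receptor of Tnfsf13b better known from B cells. Over all genes 13.5% and 9.02% were called in these comparisons. Tnfrsf13b was at 3.52 ± 1.29 normalized CPM in WT blood at 0h and 46.6 ± 3.19 at 12h (log2 fold change 3.64, SE 0.36, edgeR adjusted p = 0.0021), and at 3.49 ± 1.07 and 30.4 ± 15.8 in WT lung (3.16, SE 0.48, adjusted p = 0.0112). Its ligand fell in the same 2 comparisons. In αD KO blood it was at 8.28, 3.57 and 42.4 at 0h, the last of these in the library with the highest B cell and T and NK cell sums, and at 38.9 to 49.4 at 12h. It was not called there (1.23, SE 0.75, edgeR adjusted p = 0.326), and 0 of 18 receptors were, against 8.75% of all genes. Without that library at 0h it was called (2.87, SE 0.48, edgeR adjusted p = 0.0262). In αD KO lung it was at 3.99, 2.44 and 40.3 at 0h and 4.60, 21.5 and 4.51 at 12h. Library 2 of lung at 0h had the lowest B cell sum of its group (50.1). The part of other cells in these values was not tested. The calls of Tnfrsf13b in WT depended on single libraries as well. In WT blood the call was lost without library 2 at 0h and without library 1a or 2 at 12h (3.59 to 3.97, edgeR adjusted p = 0.0587 to 0.0845). The call in WT lung was lost without library 1a or 2 of either time point (3.03 to 3.15, adjusted p = 0.0614 to 0.140) and with all 8 groups in one fit (3.11, adjusted p = 0.0777).

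The list of receptor signalling includes genes that carry the signal from the receptors to NF-κB or to caspases, and genes that restrain it, such as Cflar. Of these, in WT blood 6 of 31 rose and 2 fell, in WT lung 5 of 30 rose and none fell, and in αD KO blood 4 of 31 rose and 1 fell. Over all genes 7.75% were higher and 5.75% lower in WT blood, 5.24% and 3.78% in WT lung, and 3.75% and 4.99% in αD KO blood. These calls too depended on single libraries. Without library 1a or 2 of either time point 0 or 1 genes of the list were called in WT blood (0.00999% to 0.811% of all genes) and 0 in WT lung (0% to 0.122%). In WT lung 2 were called without library 1b at 0h (5.03% of all genes) and 15 without library 1b at 12h (25.3%). In αD KO blood 1 was called when library 1a or 1b at 0h, or 1a or 2 at 12h, was left out (0.456% to 4.67% of all genes). The median log2 fold change of the list was 0.27, 0.77 and 0.39, and that of all genes -0.15, 0.03 and -0.14. Traf1, an adaptor that binds Tnfrsf1b, rose in all 3 comparisons: by 3.48 on the log2 scale in WT blood (SE 0.50, edgeR adjusted p = 0.0061), 5.71 in WT lung (SE 1.11, adjusted p = 0.0229) and 3.20 in αD KO blood (SE 0.68, adjusted p = 0.0294). In WT lung it was at 10.8 to 20.1 normalized CPM at 0h and at 45.2 to 1399 at 12h. Tnip1, a binding partner of the NF-κB inhibitor A20, also rose in all 3, by 3.98 in WT lung (SE 0.59, adjusted p = 0.0101), 2.78 in αD KO blood (SE 0.31, adjusted p = 0.00372) and 1.91 in WT blood (SE 0.46, adjusted p = 0.0333). Ripk3, the kinase of necroptosis, rose by 2.74 in WT blood (SE 0.45, adjusted p = 0.0098) and 5.07 in WT lung (SE 0.71, adjusted p = 0.00871), and its value in αD KO blood was 1.68 (SE 0.61, adjusted p = 0.123, not called).

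In WT blood the adaptor Tank also rose, by 1.98 (SE 0.35, edgeR adjusted p = 0.0131), as did Casp8, while Map3k14 fell. In WT lung the other 2 that rose were Tradd, the adaptor that binds the death domain of Tnfrsf1a (1.23, SE 0.29, adjusted p = 0.037), and Otulin, which removes linear ubiquitin chains (2.05, SE 0.49, adjusted p = 0.0404). The others in αD KO blood were Cflar, an inhibitor of caspase 8 (1.40, SE 0.27, adjusted p = 0.0215), which also rose in WT blood (1.75, SE 0.42, adjusted p = 0.0319), and Birc3, a ubiquitin ligase of the TNF receptor complex (1.71, SE 0.32, adjusted p = 0.0197). Traf5 fell in blood of both genotypes, by 2.61 on the log2 scale in WT (SE 0.47, adjusted p = 0.0131) and 2.52 in αD KO (SE 0.52, adjusted p = 0.0275). Of the 7 other TNF-induced proteins, 6 were tested in each comparison. Of these Tnfaip3, which encodes A20, was called in αD KO blood (2.61, SE 0.36, adjusted p = 0.00693). It had a log2 fold change of 1.54 (SE 0.58, adjusted p = 0.125) in WT blood and 3.41 (SE 1.07, adjusted p = 0.0845) in WT lung, neither called. In αD KO lung 0 genes of the 4 lists were called.

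**Figure D5:**
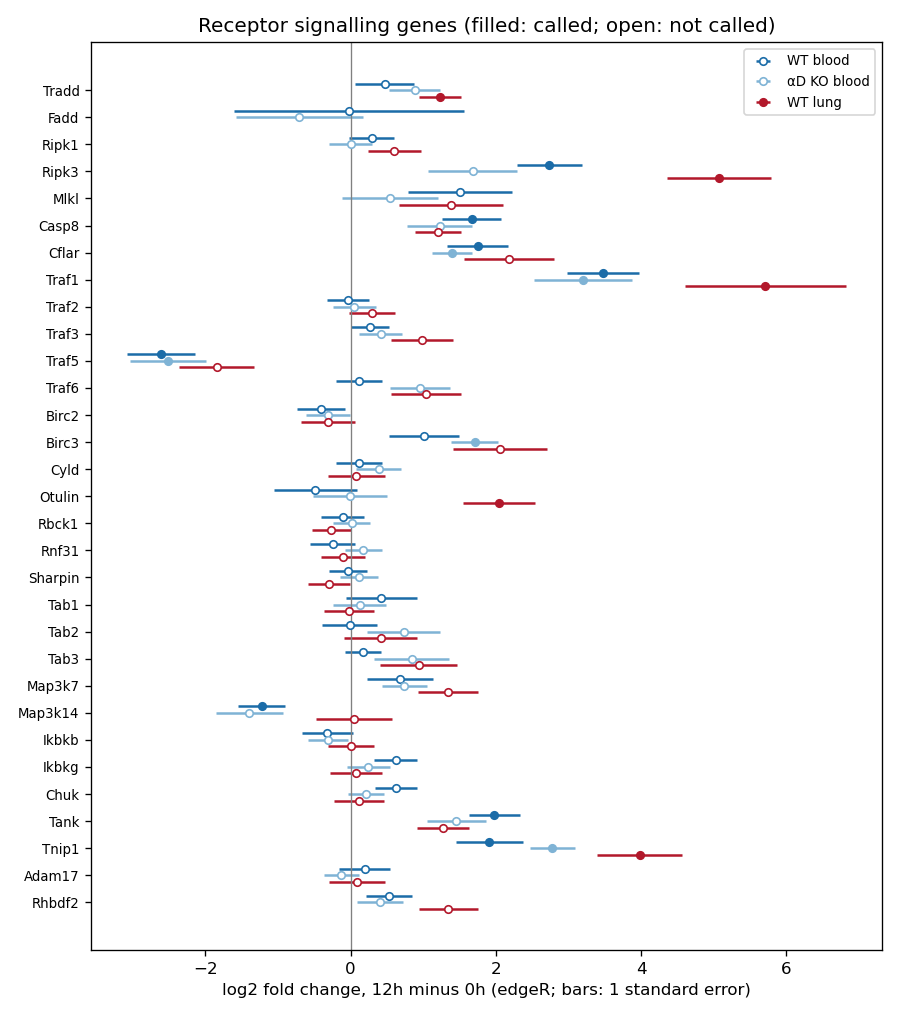
Fitted log2 fold change (12h minus 0h) of the 31 receptor signalling genes in 3 comparisons, with bars of 1 standard error (filled called, open not called; Fadd was not tested in WT lung). Traf1 and Ripk3 in WT lung lie farthest to the right, at 5.71 and 5.07, and Traf5 in blood farthest to the left, at -2.61 and -2.52.

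The members' levels also varied with each other over the 24 libraries. These are correlations of log2 CPM over libraries that share groups and differ in depth, given as a description. Tnfrsf1b and Fas had a Pearson r of 0.92, Tnf and Tnfrsf1b of 0.86 and Tnf and Fas of 0.84. Tnf and Tnfsf14 had an r of -0.83. Tnfrsf1a was most like Tnfaip2 among the members (r = 0.76) and showed little relation to Tnf (r = -0.13).

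Among 25288 genes, the 3 whose levels were most like those of each member over these libraries were as follows. For Tnf they were Txnrd1 (r = 0.96), Ehd1 (0.95) and Nfe2l1 (0.95). For Tnfsf14 they included Cyb5r1 (0.97) and Prickle3 (0.97), and for Tnfsf13b they were Ctsa (0.97), Gpn3 (0.94) and Aagab (0.94). For Tnfrsf1b they were Batf (0.96), Pik3ap1 (0.95) and Il10ra (0.95), and for Fas Il1rn (0.96), Irak2 (0.95) and Il10rb (0.95). Batf is a transcription factor, Il10ra and Il10rb encode the 2 chains of the interleukin 10 receptor, and Il1rn the antagonist of the interleukin 1 receptor. Tnfrsf1a had lower values, with Stk40 (0.90), Mknk2 (0.89) and Ubtf (0.87), and Tnfsf10 the lowest, with St5 (0.89), Synm (0.85) and Cfap74 (0.84). For Tnfaip2 they were Slc25a33 (0.96), Gm19582 (0.95) and Arhgap26 (0.95).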

How the data were processed

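Blood and lung neutrophils were sorted, RNA was amplified as full-length cDNA (SMART-Seq v4) and sequenced from Nextera XT libraries. Per the labels, the authors used Trimmomatic 0.36 and STAR 2.5.2b with GRCm38 (mm10). The authors deposited 1 table of raw counts per gene and library. The counting tool's treatment of strand is not given in the sources used here. A library's name gave its number within a group: 1a and 1b are files of sample 1. The genes' positions equalled GENCODE M21 for 44823 of 49315 genes, and 48970 IDs had a symbol.

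Counts were tested with edgeR 4.0.16 (R 4.3.3): TMM scaling, filterByExpr, a two-sided F test by quasi-likelihood, fitted for each comparison on its own libraries, and Benjamini-Hochberg adjustment over all genes tested. Normalized CPM were scaled by TMM over all 24 libraries and divided by exonic length for comparison between genes. Log2 CPM for correlations had a prior count of 1. The scripts were tested on simulated data. Interactions were called at an adjusted p under 0.05. There were 12 comparisons of 2 groups and 4 interactions. The alternatives were RLE scaling, no filter, DESeq2 1.42.0, all 8 groups in one fit, the files of sample 1 summed, the library number as replicate block, the adjusted p alone, leaving out each library, leaving out the libraries that stood apart, and, added after seeing the data, libraries 1a and 2 alone.

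The members and gene lists were chosen with earlier results of these data known. All 8 members were named in every comparison. Of the lists, all called genes were named where 5 or fewer were called, and otherwise the 4 with the largest fold change among those without overlap, with the other 4 of receptor signalling in WT blood named after their values were seen. The 3 genes most alike to each member were named, except 1 that is not reported here.

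Files 1a and 1b of a sample differed far beyond sampling noise (chi-square over genes divided by its degrees of freedom between 63.5 and 328). Whether library numbers pair the groups is not given by the labels. The deviations of same-numbered libraries from their group means correlated above 0.1 for every number in 8 of 16 comparisons. The lowest correlation of a comparison ranged from -0.191 (genotype and time in lung) to 0.337 (tissue and time in WT), and was 0.119 in WT blood at 12h against 0h, 0.0707 in WT lung and 0.05 in αD KO blood. The positions of Tnfsf14 and Fas in the files differ from GENCODE M21.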

Additional observations from a re-analysis of the deposited data

How the results depend on the processing

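Every member called at 12h against 0h in blood or WT lung kept the direction of its change under each of its 13 alternatives. The libraries of these members did not overlap between 0h and 12h, so their direction had little room to change. The alternative of the adjusted p alone uses the main fit. The number of members called did vary. The share of all genes called is given in brackets. In WT blood, with 4 called, it was 1 without the filter (2.25%) and 1 with all 8 groups in one fit (4.12%). In WT lung, with 3, it was 1 with all 8 groups (1.65%), 5 with the files of sample 1 summed (12.3%) and 6 with libraries 1a and 2 alone (37.2%). In αD KO blood, with 3, it was 0 with all 8 groups (0.236%) and 1 with the files summed (3.84%). Leaving out 1 library gave 0 to 5 in WT blood (0.00999% to 18.4%), 0 to 6 in WT lung (0% to 25.3%), 0 to 4 in αD KO blood (0.456% to 8.74%), 0 to 4 for lung against blood in WT at 12h (4 without WT lung library 1b, 20.2%) and 0 to 3 in αD KO at 12h (3 without αD KO lung library 1b, 11.2%). The causes were not tested. Where no member was called, αD KO lung at 12h against 0h gave 1 (1.41%) without the libraries that stood apart, a count that is no test, since the libraries were chosen by their response and those left are files of 1 sample per group. Libraries 1a and 2 alone gave 6 between genotypes in lung at 12h (30.1%), 5 between tissues at 12h in WT (28.2%) and 5 in αD KO (34.3%), 4 for the interaction of tissue and time in WT (7.41%) and 5 for that of genotype and time in lung (13.2%). Without the filter these were 1 between genotypes in lung at 12h (0.489%), 1 between tissues at 12h in WT (1.59%) and 2 in αD KO (3.13%). The files summed gave 2 between tissues at 12h in each genotype (4.47% in WT, 8.27% in αD KO). DESeq2 gave 3 between tissues at 12h in WT (2.14%), 2 in αD KO (3%) and 1 in each of 3 interactions: tissue and time in WT (0.22%) and in αD KO (0.588%), and genotype and time in lung (0.71%).

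With the library number as a replicate block, a pairing that rests on the correlations alone, the same 4 members were called in WT blood (18.4%), 2 in WT lung (6.01%) and 4 in αD KO blood (10.7%), where Tnfsf13b was added (edgeR adjusted p = 0.0339), while Tnfsf13b was no longer called in WT lung. The fit with the block called no member elsewhere, where 0% to 0.478% of all genes were called. Of the receptor signalling genes, with 8 called in WT blood, 5 in WT lung and 5 in αD KO blood, all 8 groups in one fit called 2, 2 and 0 (shares of all genes above). It was 3 in WT blood without the filter (2.25%). In WT lung it was 2 with the block (6.01%), 9 with the files summed (12.3%), 12 with DESeq2 (5.65%) and 15 with libraries 1a and 2 alone (37.2%), and in αD KO blood 3 with the files summed (3.84%). Without the libraries that stood apart, Tnfsf13b reversed in lung against blood of αD KO at 12h (-1.29 on the log2 scale, against 0.85) and in the interaction of tissue and time in αD KO (-1.16, against 1.31). Few counts limit the precision for Tnfsf10 (0 to 113 per library, with 0 in WT blood library 1a at 0h and 27 in the shallower library 1b).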
